A study of Homo sapiens with 2 samples.

Results

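The genes described are MACF1, DST, SYNE1, SYNE2 and UTRN, which encode giant linker proteins of the cytoskeleton. ADAR1 clusters were assigned to a gene when their midpoint lay inside its hg19 span and their strand was that of the gene, and 37 of the 23782 clusters in the list met this rule. MACF1 held 12 of them, DST 12, SYNE1 7, SYNE2 5 and UTRN 1. A cluster is a stretch of the genome on which sequenced fragments of RNA bound by ADAR1 pile up.

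The data come from U87MG, a long-established cell line from a human glioblastoma (astrocytoma), with no treatment other than ultraviolet irradiation at 254 nm on ice to link RNA to protein. The series holds 2 libraries from cells labelled with 6 passages, AB1 and AB2, named for the antibody against ADAR1. The study speaks of different monoclonal antibodies, yet both libraries carry the same catalogue entry, and no library without antibody or without ADAR1 was analysed here. The authors deposited 1 list for both libraries, without tag counts, scores or separate columns. The depth behind each cluster is therefore unknown, no value below has replicates, and AB1 could not be set against AB2.

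ADAR1 is a deaminase that edits adenosines to inosines where RNA is double-stranded. In human transcripts such RNA forms mainly where neighbouring Alu repeats, a family of primate retrotransposons, lie in opposite orientations and pair. ADAR1 contacts outside Alu repeats are thus of separate interest, and the authors gave each cluster a class, Alu or non-Alu. The spectraplakins MACF1 and DST cross-link actin filaments and microtubules, and DST, also called dystonin, includes isoforms that anchor intermediate filaments. The nesprins SYNE1 and SYNE2 sit in the outer nuclear membrane and join the nucleus to the cytoskeleton through SUN proteins. UTRN, utrophin, is the close relative of dystrophin and ties actin to the dystroglycan complex of the cell surface. The proteins share an actin-binding region and long rods of spectrin repeats.

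These are large genes that are mostly intron. The spans of the rule were 403.0 kb for MACF1 on the plus strand of chromosome 1 from 39549800 to 39952800, and 496.8 kb for DST, on chromosome 6, minus strand, from 56322700 to 56819500. SYNE1 spanned 515.8 kb of chromosome 6, minus strand, from 152442800 to 152958600, and SYNE2 373.6 kb on the plus strand of chromosome 14 from 64319600 to 64693200. UTRN had the longest span, 561.4 kb on the plus strand of chromosome 6 from 144612800 to 145174200. In GENCODE release 29, an annotation of another build (GRCh38) used here only for lengths and counts, exons of all transcripts together made up 10.0% of MACF1 and 8.52% of DST. The values were 8.93% for SYNE1, 8.40% for SYNE2 and 2.57% for UTRN. Exons and introns were not assigned to clusters, because no annotation of hg19 was used here.

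MACF1 and DST carried the most clusters, and in both the non-Alu class was the larger one. MACF1 had 8 non-Alu and 4 Alu clusters, and DST had 7 non-Alu and 5 Alu clusters. SYNE1 had 1 non-Alu and 6 Alu clusters. All 5 clusters of SYNE2 and the 1 cluster of UTRN were Alu. UTRN, the longest of the genes, thus had the fewest clusters.

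**Figure D1:**
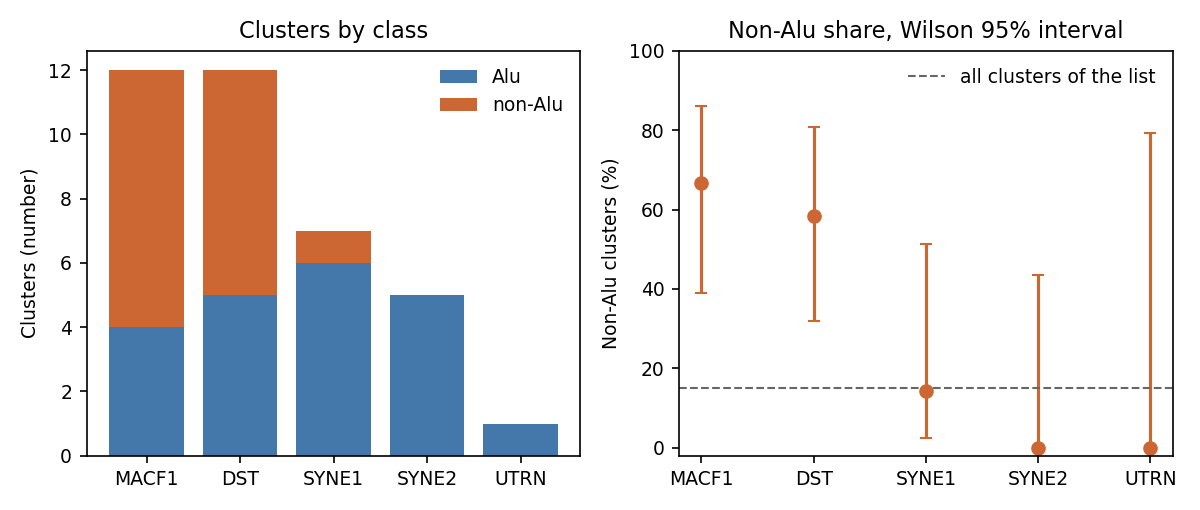
Left, the number of clusters in each gene, stacked by class, with MACF1 and DST at 12 each and UTRN at 1. Right, the non-Alu share of each gene's clusters in percent with its Wilson 95% interval (counting error only), and the share over the whole list as a dashed line, which lies below the intervals of MACF1 and DST and within those of the other genes.

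In the whole list 15.1% of clusters were non-Alu. The non-Alu share was 66.7% in MACF1 (8 of 12, Wilson 95% interval 39.1 to 86.2%) and 58.3% in DST (7 of 12, 31.9 to 80.7%). For both spectraplakin genes together it was 62.5% (15 of 24, 42.7 to 78.8%). The nesprin genes together had 8.33% (1 of 12, 1.49 to 35.4%). SYNE1 alone had 14.3% (1 of 7, 2.57 to 51.3%), and SYNE2 had 0 of 5, with an upper bound of 43.4%. These intervals cover counting error only. Clusters of the same transcript are not independent, so the difference between the families was not tested. With 5 and 7 clusters, a non-Alu share above that of the list could not have been told from it in SYNE2 or SYNE1 unless it was large.

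The class split of DST depended on short clusters. When clusters shorter than 192 bases, the median of the list, were left out, DST kept 5, of which 20% were non-Alu. MACF1 then had 77.8% non-Alu clusters.

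To place the counts, chromosomes were divided, from their first to their last cluster, into consecutive windows as long as each gene. An incomplete last window was left out, as was any chromosome whose clusters spanned less than a window. The strands were counted apart, and windows in which nothing may be transcribed were included. Of windows as long as MACF1, 0.742% held 12 or more clusters and 0.204% held 8 or more non-Alu clusters. For DST these shares were 1.53% for 12 or more clusters and 0.386% for 7 or more non-Alu clusters. Windows as long as SYNE1 held 7 or more clusters in 8.74% of cases, and windows as long as SYNE2 held 5 or more in 10.9%. UTRN, with its 1 cluster, had a count reached by 54.7% of windows of its length, which is every window with any cluster. The median of UTRN-length windows with any cluster was 3, so UTRN had the lowest count possible among them. Among windows with any cluster, 1.58% of MACF1 length and 2.96% of DST length held 12 or more. By these counts the spectraplakin genes were among the cluster-rich places of the genome. The windows were not fitted to genes, as the spans were, and the genes were chosen with earlier results of these data known.

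Non-Alu shares as high as those of MACF1 and DST were uncommon but not rare among cluster-rich places. Among 246 windows as long as MACF1 that held 10 or more clusters, the median non-Alu share was 9.31%, and 9.35% of the windows reached the 66.7% of MACF1. Among 360 such windows of DST's length the median was 9.09%, and 9.17% reached the 58.3% of DST. The RNA level of the genes was not measured here, so binding per transcript cannot be given, and a gene with few clusters cannot be told from a gene with little RNA.

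Counted per length, Alu clusters differed less between MACF1, DST, SYNE1 and SYNE2 than non-Alu clusters did. Alu clusters per 100 kb were 0.993 in MACF1, 1.01 in DST, 1.16 in SYNE1 and 1.34 in SYNE2, and 0.178 in UTRN. Non-Alu clusters per 100 kb were 1.98 in MACF1, 1.41 in DST and 0.194 in SYNE1, and none were listed in SYNE2 and UTRN. The higher totals of MACF1 (2.98 per 100 kb) and DST (2.42 per 100 kb) than of SYNE1 (1.36) and SYNE2 (1.34) lay in the non-Alu class when clusters of any length were counted. With clusters under 192 bases left out, DST kept 4 Alu and 1 non-Alu cluster, SYNE1 2 Alu and SYNE2 1 Alu, so the excess of DST then lay mainly in Alu clusters. Counting error is wide at these numbers: the exact Poisson 95% interval of a count of 12 is 6.20 to 21.0, that of 7 is 2.81 to 14.4, and that of 1 is 0.0253 to 5.57. The clusters covered 3108 bases of MACF1 (0.771% of its span), 2143 bases of DST, 1160 of SYNE1, 785 of SYNE2 and 226 of UTRN.

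In MACF1 and DST most clusters lay in the later part of the span, though evenness was not tested. SYNE1, SYNE2 and UTRN, with 7, 5 and 1 clusters, had too few to judge it. MACF1 had 9 of its 12 clusters in the last 20% of its span, counted from the 5′ end, and 0 between 40 and 80%. DST had none in the first 40% and 10 of 12 in the last 40%, divided as 5 and 5. SYNE1 had clusters in each 20% of its span except the fourth. SYNE2 had 3 of 5 between 60 and 80% and none after that. The 1 cluster of UTRN lay near the 5′ end, at 3.66% of the span, and the 540.8 kb that follow it held none on the plus strand.

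**Figure D2:**
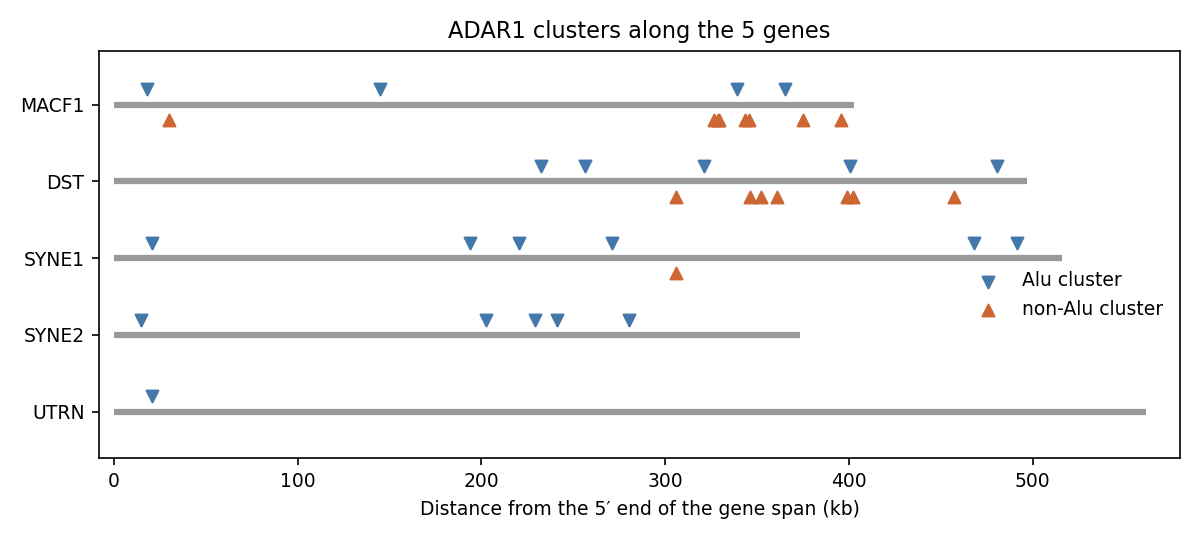
Each gene drawn to scale from its 5′ end, with distance in kb on the horizontal axis, Alu clusters as triangles above the line and non-Alu clusters as triangles below it. Non-Alu clusters of MACF1 gather beyond 326.8 kb and those of DST between 306.1 and 457.2 kb, some triangles covering each other, while UTRN shows 1 Alu cluster at 20.6 kb.

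The non-Alu clusters of the spectraplakin genes lay mostly toward the 3′ ends. Past 60% of the span, a limit set after the positions were seen, lay 14 of the 15 non-Alu clusters of MACF1 and DST, against 5 of their 9 Alu clusters. The exception was the MACF1 non-Alu cluster of 191 bases from 39579864 to 39580054, at 30.2 kb from the 5′ end. The median position was 83.5% of the span for MACF1 non-Alu clusters and 72.6% for those of DST. The non-Alu cluster of SYNE1, of 143 bases from 152652627 to 152652769, lay at 59.3%.

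The densest part of MACF1 was a run of non-Alu clusters with midpoints 326.8 to 329.5 kb from its 5′ end. A cluster of 240 bases lay from 39876495 to 39876734, and the next, of 244 bases, followed from 39878384 to 39878627. Only 245 bases further began the longest cluster of the 5 genes, 855 bases from 39878873 to 39879727. Of all non-Alu clusters of the list, 0.195% were at least that long (7 clusters, this one included). The 3 clusters of the run covered 41.4% of 3233 bases. In GENCODE release 29 the longest exon of the longest MACF1 transcript has 5451 bases, and that of DST 5508 bases, but whether the run lies in an exon was not determined.

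Further along MACF1, Alu clusters lay among non-Alu ones. An Alu cluster of 228 bases, from 39889000 to 39889227, was followed by non-Alu clusters of 226 bases at 39893093 and 192 bases at 39895524. With the run before them, these made 6 clusters, 5 of them non-Alu, within 19.2 kb or 4.77% of the gene span. An Alu cluster of 127 bases at 39915090 and a non-Alu cluster of 210 bases at 39924754 came next. The last cluster of MACF1, non-Alu and 244 bases long, lay from 39945471 to 39945714, 7.21 kb before the 3′ end of the span.

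The 5′ part of MACF1 held 3 clusters in all. The gene opened with an Alu cluster of 240 bases from 39567541 to 39567780, the longest Alu cluster of MACF1. The shortest, of 111 bases, lay from 39694393 to 39694503. After it came the longest stretch of MACF1 without a cluster, 182.0 kb or 45.2% of the span.

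DST showed a looser arrangement. From its 5′ end, the first 232.2 kb held no cluster, and the first clusters met were Alu, of 198 bases at 56587231 and 109 bases at 56563159, the shortest Alu cluster of DST. The longest non-Alu cluster of DST, 237 bases from 56513293 to 56513529, lay at 306.1 kb. It was followed by the longest Alu cluster of the 5 genes, 307 bases from 56498044 to 56498350, longer than 96.2% of all Alu clusters. Non-Alu clusters of 113 bases at 56473227, 175 bases at 56467089 and 88 bases at 56458847 then followed without an Alu cluster among them. That of 88 bases was the shortest cluster of the 5 genes.

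The closest clusters of DST formed a mixed group. An Alu cluster of 230 bases, from 56418979 to 56419208, stood between non-Alu clusters of 156 bases at 56420230 and 145 bases at 56417123. The gaps were 1021 and 1711 bases, and the whole group spanned 3263 bases, or 0.657% of the gene. Of all sets of 3 consecutive clusters on a strand, 0.984% spanned as little as this group, a comparison chosen after it was seen. The closest 3 clusters of MACF1 are among these sets. DST ended with a non-Alu cluster of 184 bases at 56362162 and an Alu cluster of 201 bases at 56339056, 16.5 kb before the 3′ end.

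Non-Alu clusters of MACF1 and DST differed in length. The MACF1 clusters were 191 to 855 bases long with a median of 233 bases, and 7 of 8 exceeded the median of all non-Alu clusters, 191 bases, while the other equalled it. The DST clusters were 88 to 237 bases long with a median of 156 bases, and 6 of 7 fell below the same median. Except for that of 237 bases, each DST non-Alu cluster was shorter than the shortest of MACF1. The 15 clusters come from 2 genes, and the difference was not tested.

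**Figure D3:**
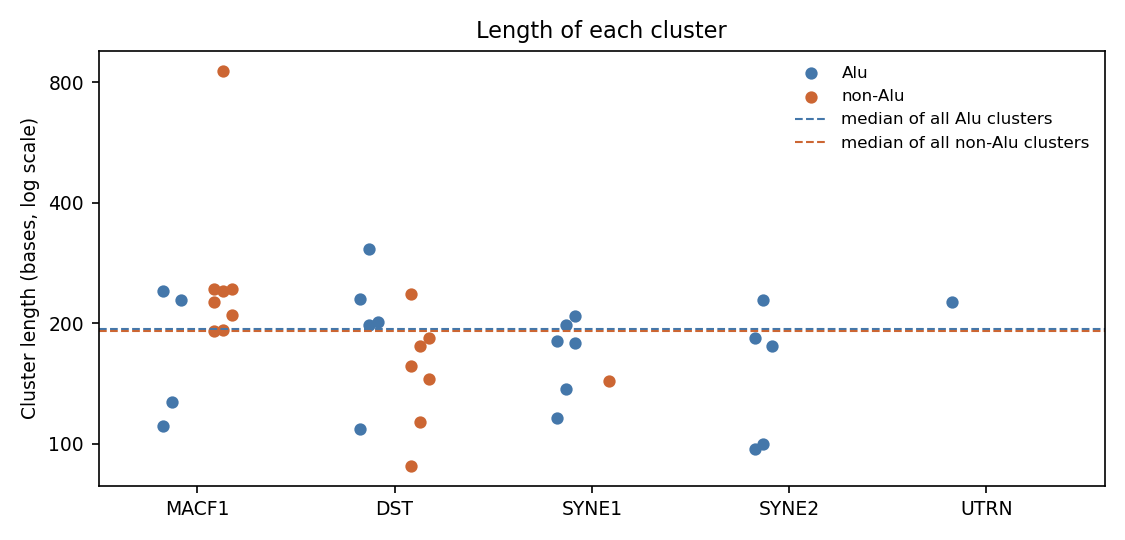
Length of each cluster in bases on a log scale, by gene, with 1 point per cluster coloured by class and dashed lines at the medians of all Alu (193 bases) and all non-Alu clusters (191 bases). The non-Alu points of MACF1 sit at or above the lines, up to 855 bases, and 6 of the 7 of DST sit below them.

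Alu clusters had medians close to that of the list. Their median was 177.5 bases in MACF1, 201 in DST, 179 in SYNE1 and 175 in SYNE2, against 193 bases over all Alu clusters, whose middle 50% ran from 152 to 221 bases. Of the 21 Alu clusters, 13 lay outside that range, among them all 4 of MACF1. About 50% of all Alu clusters lie outside it by construction, and the difference was not tested. In SYNE2 4 of 5 and in SYNE1 4 of 6 were shorter than the median of the list. In DST 4 of 5 were longer.

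Clusters of the nesprin genes, nearly all Alu, had a median gap to the nearest same-strand cluster of 26004 bases in SYNE1 and 26364 in SYNE2. Over the whole list it was 17679.5 bases. SYNE1 began with an Alu cluster of 198 bases from 152937544 to 152937741, at 21.0 kb from the 5′ end, and 172.9 kb without a cluster followed. Alu clusters of 137 bases at 152764507, 178 bases at 152738325 and 208 bases at 152687287, the longest of SYNE1, lay in the middle of the gene. The non-Alu cluster was 34517 bases beyond the last of these. The Alu clusters of 116 bases at 152490580, the shortest of SYNE1, and 180 bases at 152466998 closed the gene. They were also its closest pair, 23402 bases apart.

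SYNE2 had its first Alu cluster, of 100 bases from 64334290 to 64334389, at 14.7 kb from the 5′ end. The next followed after 187.7 kb, or 50.2% of the span, with 175 bases at 64522086. The shortest SYNE2 cluster, 97 bases at 64548625, and one of 184 bases at 64560743 formed its closest pair with 12021 bases between them. The last and longest, 229 bases from 64599613 to 64599841, lay 93.5 kb before the 3′ end.

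In MACF1, SYNE1, SYNE2 and UTRN the earliest cluster was an Alu cluster 14.7 to 21.0 kb from the 5′ end, a likeness noticed after the positions were seen. In MACF1 this distance was 17.9 kb and in UTRN 20.6 kb, where the cluster of 226 bases ran from 144633254 to 144633479. In DST the earliest cluster was also Alu, but 232.2 kb from the end. Only 15.1% of all clusters were non-Alu, and in UTRN the earliest cluster was its only one. How often the earliest cluster of other genes lies this near the 5′ end was not calculated.

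Close neighbours were confined to the MACF1 pair already described, at a limit of 1000 bases on the same strand. MACF1 thus had 2 of 12 clusters with a neighbour, 16.7%, and none of the 25 clusters in the other 4 genes had one. The closest pair of DST, 1021 bases apart, lay just beyond this limit. The share with a neighbour was 6.7% over all clusters of the list. Both MACF1 clusters with a neighbour were non-Alu, which makes 2 of its 8 non-Alu clusters, or 25%, against 17.1% of all non-Alu clusters. Within 5000 bases, 50% of the MACF1 and 25% of the DST clusters had a neighbour, but the share over all clusters was not calculated at that distance. The median gap to the nearest same-strand cluster was 6701 bases in MACF1 and 11548 in DST, against 17679.5 over the whole list.

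No cluster of the opposite strand lay in any of the 5 spans. Windows as long as MACF1 with 12 or more clusters on 1 strand had none on the other in 34.9% of cases, so for a single gene this is not unusual. The corresponding shares were 28.6% for DST, 27.3% for SYNE1, 40.5% for SYNE2 and 33.6% for UTRN. How often all 5 spans would show it together was not tested. GENCODE release 29 places the coding gene ESR1 across 7936 bases of SYNE1 and ESR2 across 142202 bases of SYNE2, both on the opposite strand. On the strand of the genes it lists no other coding gene inside the 5 genes, only a sense intronic transcript in MACF1 and a processed pseudogene in UTRN.

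On the strand of the gene, equally long flanks held fewer clusters around MACF1, DST and SYNE1. MACF1 had 12 clusters against 1 in the upstream and 1 in the downstream flank, and DST had 12 against 0 and 3. SYNE1 had 7 against 2 upstream and 0 downstream. SYNE2 had 5 in the gene, 0 upstream and 6 downstream. Its density exceeded that of its flanks by 0.535 clusters per 100 kb, by 1.34 when the flanks were cut to 100 kb, which held no cluster, and by 0 when shorter clusters were left out. UTRN had 1, with 3 upstream and 0 downstream. Same-strand clusters in the flanks of MACF1, DST, SYNE2 and UTRN were all Alu, and 1 of the 2 upstream of SYNE1 was non-Alu. In the whole list 15.1% of clusters were non-Alu, so few or none are to be expected among so few flank clusters. On the opposite strand, non-Alu clusters numbered 1 upstream of SYNE1, 1 downstream of SYNE2 and 2 upstream of UTRN.

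**Figure D4:**
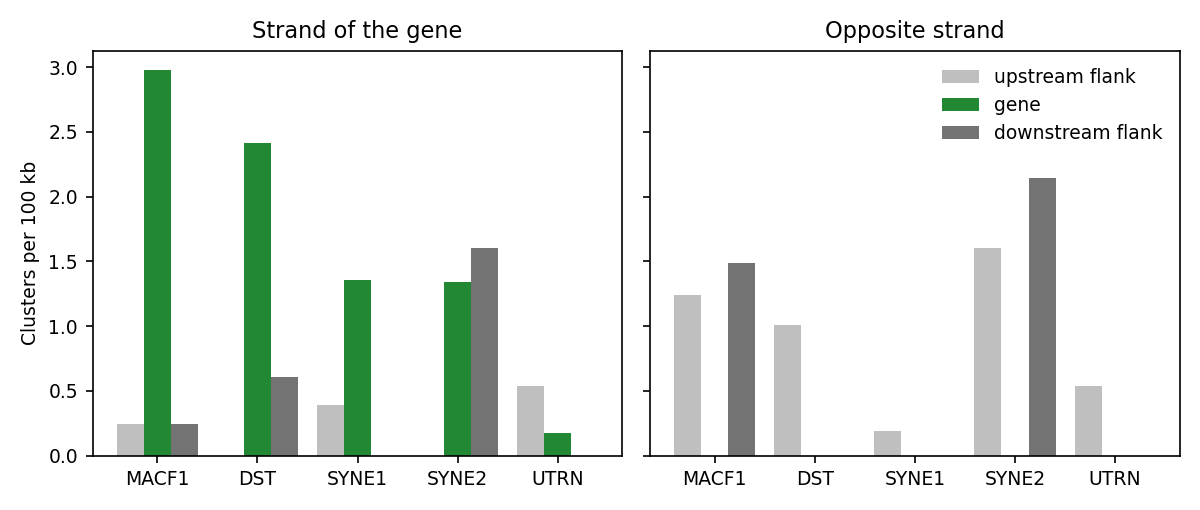
Clusters per 100 kb in each gene (green) and in flanks of the gene's own length upstream (light grey) and downstream (dark grey), on the strand of the gene (left) and on the opposite strand (right). On the left MACF1 reaches 2.98 and DST 2.42 per 100 kb, above their flanks, and on the right no gene has a bar while the upstream flank of each gene does.

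The membership of the genes did not hinge on their bounds. The cluster midpoint nearest to an edge inside was that of MACF1, 7.21 kb from its 3′ end. The nearest outside was an Alu cluster from 39967595 to 39967822, 14.8 kb beyond the same end. For SYNE2, RefSeq on GRCh38 gives a longer gene, 464.9 kb. The nearest same-strand clusters beyond the SYNE2 span lay 164.1 kb downstream and 2090 kb upstream, both farther away than the added length. They are not counted here.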

How the data were processed

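The authors used cutadapt 1.1 for adapters, Novoalign 2.08.22 for alignment and the build hg19, as far as the submitters' processing notes show. Per the labels' protocols, libraries had 23 cycles of PCR and products of 75 to 250 bp were selected. The cluster caller, its thresholds, the joining of the libraries and the rule for the Alu class are not stated in the sources at hand, and the treatment of reads with several matching places can decide which Alu copies are listed. The deposited list gives position, class and strand only. Starts were read as counted from 0 and are printed counting from 1.

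Scripts ran in Python 3.11.15 (pandas 2.3.3, numpy 2.4.6, scipy 1.17.1). Shares have Wilson and counts exact Poisson 95% intervals, for counting error only. Gene spans are those of the rule. No hypothesis test was made, since no unit is replicated. Genes and rules were chosen with earlier results of these data known. By the naming rule, all 5 genes, their edge, longest, shortest and closest clusters and leading non-Alu clusters are given. Lists of related genes (SUN proteins, the dystrophin complex, spectrins, plakins, microtubule end proteins) were not analysed, for want of an hg19 annotation. The counting was checked on planted clusters. Alternatives changed the assignment, bounds, strand, length filter, merging, neighbour distance, flank size and window placing, the last chosen after the data were seen.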

Additional observations from a re-analysis of the deposited data

How the results depend on the processing

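Of 110 alternative values for 35 results, 98 kept to the main value: counts within 1.5 times, shares within their Wilson interval, lengths and positions within the middle 50% of the gene's clusters, and density differences within counting error. Windows shifted by 50% of their length moved none of these results. Any overlap, bounds moved by 5 kb, both strands, merging within 50 bases and a minimum of 40 bases could not change the clusters of these genes. The midpoint nearest to an edge lay 7.21 kb inside, and the nearest outside cluster 14.8 kb away. The spans held 0 clusters of the opposite strand, the smallest gap was 245 bases and the shortest cluster had 88 bases. Such fixed values make up most of the 98, so that count says little about robustness. Keeping clusters at or above 192 bases, which removes about as many as it keeps by construction, left 5 clusters in DST, 2 in SYNE1 and 1 in SYNE2. The non-Alu share then was 20% in DST and 0% in SYNE1, the median position 28.3% of the span in SYNE1 and 75.0% in SYNE2, and SYNE1 exceeded its flanks by 0.194 clusters per 100 kb instead of 1.16. With this filter DST exceeded its flanks by 1.01 instead of 2.11, and MACF1 by 2.11 instead of 2.73. Both drops lay within counting error and are among the 98. The share with a neighbour in MACF1 was 0% within 200 bases and 50% within 5000 bases, and 25% in DST within 5000 bases. The share over all clusters was not calculated at these distances, so the values cannot be set against the 6.7% at 1000 bases. UTRN minus its flanks gave -0.0891 clusters per 100 kb, and 0.178 with flanks of 100 kb, which held no cluster. No paired analysis was possible because the list does not separate AB1 and AB2, which also means that neither library could be dropped. Without tag counts, stretches of the genes with no cluster may lack binding or lack depth.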
